A study of Mus musculus with 24 samples.

Results

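Livers of wild-type (WT) mice killed at 13:30 were compared with livers of WT mice killed at 10:30. The comparison takes 6 of the 24 libraries of the series, 3 mice at each time, chosen by the genotype, feeding state and time given in their labels. All 6 mice were male, of a mixed 129/Sv plus C57BL/6 background, 16 to 20 weeks old and fed ad libitum. On the zeitgeber scale, which counts hours from lights on, 10:30 is ZT 3.5 and 13:30 is ZT 6.5, so both times lie in the rest phase of a nocturnal animal. The WT mice of this series are the controls of α7HMZ mice (HMZ), an exon swap line whose Hnf4a gene makes only the P2-HNF4α isoforms. The HMZ livers at the same times and the WT livers at 20:30, in the dark phase, all fed, are set beside the WT comparison where they bear on it. Each mouse gave 1 library of poly(A) RNA, and mice of a group were harvested one after another within 30 min.

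The mammalian clock is a feedback loop of transcription. The BMAL1 protein (gene Arntl) pairs with CLOCK or NPAS2, binds E-boxes and drives the Per, Cry and Nr1d genes, whose products repress that pair or the Arntl gene itself. The same loop drives the PAR bZIP factors Dbp, Tef and Hlf, which act on D-boxes, and in liver it reaches cholesterol, bile acid, lipid, glucose and drug metabolism through these factors and the REV-ERB (Nr1d1, Nr1d2) and ROR nuclear receptors. Feeding, body temperature and glucocorticoids add their own daily rhythms.

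The 3 WT livers of 10:30 were sequenced on flow cell 375 and those of 13:30 on flow cell 377, so the time of day and the flow cell cannot be told apart in this comparison. WT livers of 20:30 were also on flow cell 377, which gives a comparison with 13:30 within a flow cell, although it shares the 13:30 libraries. HMZ livers were split over the flow cells in the same way as WT livers. Total counts ranged from 12973444 to 23175751 at 10:30 and from 16200783 to 28445590 at 13:30. The ribosomal transcript Rn45s took 0.157 to 0.405% of the counts at 10:30 and 0.0994 to 0.12% at 13:30. Across 13231 genes, which are not independent of each other, the log2 fold change and the GC content of the gene had a Spearman rho of 0.277. The same rho was 0.379 in HMZ liver, which changes flow cell too, and -0.143 for WT 13:30 against 20:30, within 1 flow cell. In a fit with offsets for GC content, 18 of the 137 called genes named here lost their call and 0 changed direction.

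Hepatocyte genes were high in every library, as the liver label states the tissue to be. The 10 hepatocyte markers summed to between 124600 and 153700 CPM (the count scaled to the size of its library) at 10:30 and between 94080 and 112300 CPM at 13:30. Albumin (Alb) held 101290, 83722 and 110340 CPM at 10:30 against 63424, 77199 and 73594 CPM at 13:30, a log2 fold change of -0.47 (SE 0.19) that did not pass the test (adjusted p = 0.097). Markers of the other liver cells were low. Summed levels at 10:30 and 13:30 were 362.7 to 482 and 377.9 to 416.5 CPM for 11 Kupffer cell genes, 450.1 to 533.6 and 394.3 to 434 CPM for 10 genes of sinusoidal endothelium, and 300.3 to 383.9 and 212.3 to 292.6 CPM for 10 genes of stellate cells and fibroblasts. Cholangiocyte genes (6 tested) summed to between 47.5 and 55.78 CPM at 10:30 and between 36.76 and 41.68 CPM at 13:30, neutrophil (2), lymphocyte (5) and adipocyte (1) genes to at most 7.025 CPM, and pancreatic acinar genes (3) to between 35.15 and 49.08 CPM. Erythroid genes (3) summed to between 276.4 and 347.6 CPM at 10:30 and between 299.6 and 370.4 CPM at 13:30. Across these cell type lists, Clec4g of endothelium and Spp1 of cholangiocytes passed the test, both lower at 13:30, by 0.72 (SE 0.13, adjusted p = 0.0012) and 0.47 (SE 0.14, adjusted p = 0.02) on the log2 scale. The call of Spp1 was lost with GC offsets and without WT 10:30 replicate 1 or 2 or WT 13:30 replicate 1 or 3. In whole tissue, fewer cells of a type and less RNA per cell cannot be told apart.

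Over 3 h, 1269 of 13334 genes tested (9.52%) were higher and 1281 (9.61%) were lower at 13:30, by edgeR's quasi-likelihood test at an adjusted p under 0.05. At least 2-fold changes made up 206 of the higher genes (1.54% of those tested) and 243 of the lower genes (1.82%). The calls across all genes depend on single mice. Without WT 10:30 replicate 2, 757 genes were higher and 814 lower, without WT 13:30 replicate 3, 830 and 799, and the 2-fold counts stayed between 170 and 253 higher and between 198 and 274 lower over the 6 fits that each leave out 1 WT library. The CPM ranges of the 3 livers at each time did not overlap in 5749 genes (43.1%), so a gap between ranges is common in this comparison. Against WT 20:30, 1329 genes (9.97%) were higher and 1550 (11.6%) lower at 13:30. In HMZ liver, 303 genes (2.27%) were higher and 320 (2.4%) lower at 13:30 than at 10:30. All p-values rest on the spread among the 3 mice of a group, estimated over the 6 groups of the 18 fed libraries. In a fit of the compared libraries only, 1825 genes were higher and 1785 lower at 13:30 in WT liver.

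**Figure D1:**
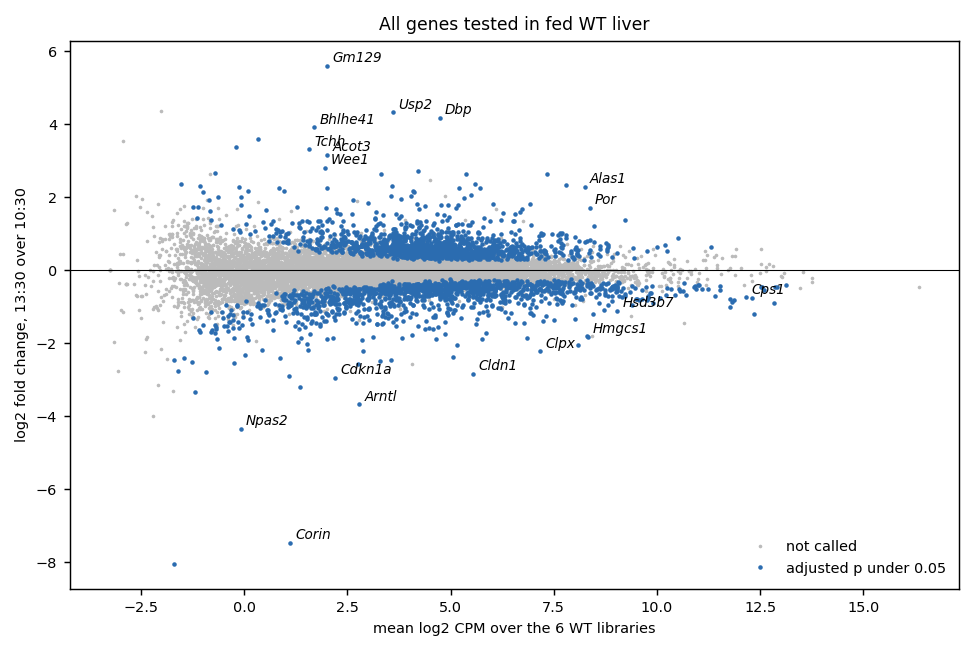
Each point is 1 of the 13334 genes tested, with its mean log2 CPM over the 6 WT libraries on the x axis and its log2 fold change from 10:30 to 13:30 on the y axis, in blue where the adjusted p was under 0.05. Most called genes lie within 1 log2 unit of 0, and clock genes such as Gm129 (5.61) and Arntl (-3.68) lie far from it.

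Clock genes held many of the largest changes. Of the 14 genes named for the largest rises, 7 were on the clock lists (Gm129, Usp2, Dbp, Bhlhe41, Wee1, Ccrn4l and Per3), and of the 15 named for the largest falls, 3 were (Arntl, Slc45a3 and Elovl3). The activating arm fell and the repressing arm rose between the times. Of the 5 clock activators, 3 were lower and 0 higher (median log2 fold change -0.99), of the 11 clock repressors, 8 were higher and 1 lower (median 1.04), and all 3 PAR bZIP factors were higher (median 1.83), beside a median of -0.01 over all genes. The counts of these lists and of the clock output genes moved by at most 1.5 times in each of the 16 alternative fits. Clock lists were chosen for known rhythms of liver, so their counts describe these genes and are not independent evidence of a rhythm.

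Arntl, which encodes the BMAL1 activator, reached 23.2, 24.7 and 25.1 CPM in the 3 livers of 10:30 and 1.90, 2.13 and 1.60 CPM at 13:30. The groups lay far apart with little spread within either, and the gene fell by 3.68 on the log2 scale (SE 0.32, adjusted p = 1.9e-06). Its level at 20:30 was 5.202, 7.95 and 8.38 CPM, above every liver of 13:30 (log2 fold change of 13:30 over 20:30 -1.90, SE 0.33, adjusted p = 0.0012). Npas2, the paralog of Clock that can take its place beside BMAL1, was a low gene with 81, 61 and 32 counts at 10:30 and 5, 4 and 2 counts at 13:30. Its fall of 4.34 on the log2 scale (SE 0.51, adjusted p = 3.7e-05) rests on those few counts at 13:30. Clock itself was at 86.1, 74.5 and 83.9 CPM at 10:30 against 46.1, 35.0 and 42.4 CPM at 13:30, and fell by 0.99 (SE 0.12, adjusted p = 5.6e-05). Npas2 and Clock showed no called difference between 13:30 and 20:30. Rora, a ROR receptor that activates Arntl, did not pass the test, with a log2 fold change of -0.23 (SE 0.31).

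Among the repressors, Gm129 (Ciart, a repressor that binds BMAL1) changed most. It held 6, 7 and 13 counts at 10:30, which is 0.272, 0.431 and 1.06 CPM, and 530, 863 and 428 counts at 13:30, which is 24.5, 29.1 and 24.5 CPM. The log2 fold change was 5.61 (SE 0.56, adjusted p = 7.1e-06). Bhlhe41 (DEC2), which competes for E-boxes, was at 0.862, 0.924 and 0.569 CPM at 10:30 against 14.8, 8.48 and 13.6 CPM at 13:30, a rise of 3.92 (SE 0.50, adjusted p = 6.5e-05). Both genes were near the bottom of the measured range at 10:30 and clearly counted in every liver 3 h later. At 20:30 both had lower levels than at 13:30, with 6.64, 8.59 and 5.67 CPM for Gm129 (adjusted p = 0.0038) and 2.13, 1.41 and 0.516 CPM for Bhlhe41 (adjusted p = 4.2e-04). The related Bhlhe40 (DEC1) went from 62.2, 65.9 and 58.2 CPM to 149.6, 104 and 131 CPM (log2 fold change 1.04, SE 0.28, adjusted p = 0.014), a call that was lost without WT 13:30 replicate 1, the highest of its group.

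The Period genes, whose proteins form the repressor complex with the CRY proteins, all rose. Per3 was at 3.67, 3.39 and 5.04 CPM at 10:30 against 18.5, 26.2 and 30.2 CPM at 13:30 (log2 fold change 2.64, SE 0.28, adjusted p = 1.3e-05). Per2 was at 9.26, 5.54 and 9.68 CPM and then at 36.0, 28.6 and 36.6 CPM (2.05, SE 0.30, adjusted p = 2.5e-04). Per1 was at 18.9, 15.6 and 16.4 CPM and then at 41.9, 55.0 and 50.1 CPM (1.53, SE 0.37, adjusted p = 0.0073). In each of the 3 genes the lowest liver of 13:30 lay above the highest of 10:30. Against 20:30 none of the 3 passed the test. Cry2 rose by 0.98 (SE 0.15, adjusted p = 2.7e-04), whereas Cry1 had a log2 fold change of 0.20 (SE 0.18, adjusted p = 0.47) and levels of 9.62, 8.99 and 7.57 CPM at 10:30 against 9.11, 9.02 and 12.4 CPM at 13:30. Cry1 was higher at 20:30, at 22.7, 27.4 and 28.8 CPM.

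The REV-ERB receptors repress Arntl and other genes with ROR elements. Nr1d2 (REV-ERBβ) was at 75.5, 81.3 and 74.4 CPM at 10:30 against 137, 134 and 135 CPM at 13:30, and rose by 0.81 on the log2 scale (SE 0.21, adjusted p = 0.0099). Nr1d1 (REV-ERBα) was at 106, 94.4 and 72.6 CPM and at 119.6, 117 and 126 CPM, which did not pass the test (0.41, SE 0.23, adjusted p = 0.23). Within flow cell 377, however, Nr1d1 was 3.66 log2 units higher at 13:30 than at 20:30 (SE 0.26, adjusted p = 5.0e-07), where it stood at 13.1, 5.77 and 8.64 CPM. Nr1d1 was thus high at both daytime points. Nfil3 (E4BP4), which binds the D-boxes of the PAR bZIP factors as a repressor, was the only repressor that fell, from 38.8, 33.4 and 22.4 CPM to 18.5, 18.4 and 14.3 CPM (-0.89, SE 0.19, adjusted p = 0.0037).

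Dbp, a PAR bZIP activator of cytochrome P450 and other liver genes, was at 4.72, 7.45 and 6.75 CPM at 10:30 against 96.6, 124 and 118 CPM at 13:30. The groups did not approach each other, and the log2 fold change was 4.17 (SE 0.38, adjusted p = 2.8e-06). At 20:30 it was back at 23.5, 14.6 and 20.7 CPM (13:30 over 20:30 2.50, SE 0.35, adjusted p = 2.2e-04). Sphk2 overlaps Dbp on the opposite strand and averaged 47.6 CPM at 10:30 and 87.8 CPM at 13:30, and the library kit did not mark strand. Tef was at 66.2, 60.3 and 65.5 CPM and then at 214, 244 and 227 CPM (1.83, SE 0.16, adjusted p = 2.0e-06). Hlf was at 31.4, 24.6 and 27.1 CPM and then at 29.6, 53.0 and 46.5 CPM, so its groups overlapped, and its call (0.63, SE 0.20, adjusted p = 0.031) was lost when WT 10:30 replicate 2 or 3 or WT 13:30 replicate 2 or 3 was left out.

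**Figure D2:**
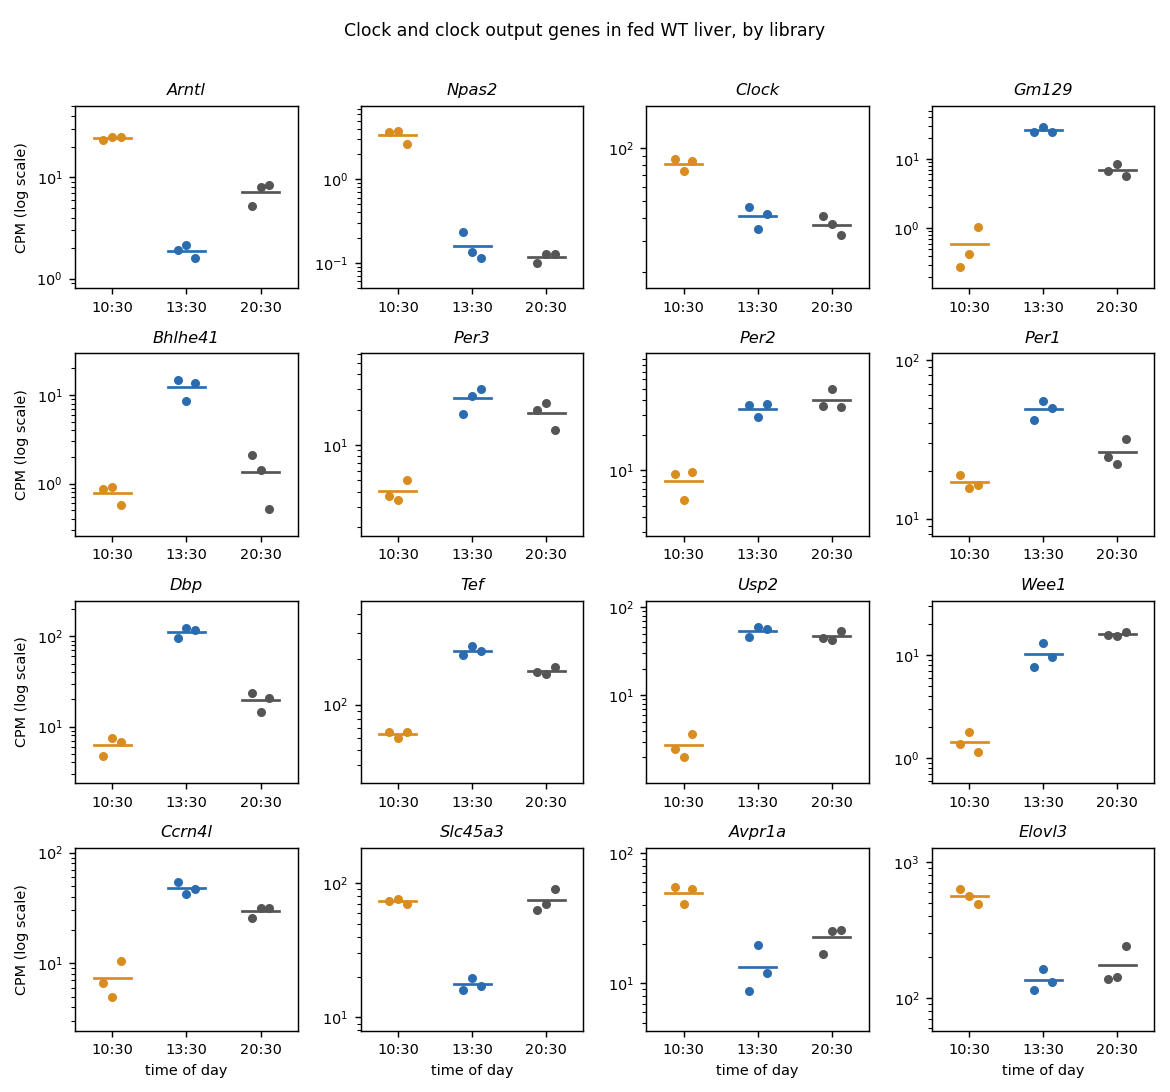
Levels of 16 clock and clock output genes in CPM (log axis) in the 3 fed WT livers of 10:30, 13:30 and 20:30, with a dot per liver and a line at the group mean. The livers of 10:30 and 13:30 do not overlap in any panel, and Arntl, Npas2, Clock, Slc45a3, Avpr1a and Elovl3 lie lower at 13:30 while the other genes lie higher.

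Promoters of the clock genes were read from RefSeq on mouse build GRCm38.p6, from 250 bases before to 50 bases after the start of the gene, and searched on both strands. The E-box CACGTG, which BMAL1 binds, occurred in 7.15% of 32851 promoters and its variant CACGTT in 4.68%. The ROR element core TAGGTCA, to which REV-ERB and ROR receptors bind, occurred in 2.61%, the D-box (TTATGTAA or TTACGTAA) in 1.06%, and the cAMP element TGACGTCA in 1.79%. Of the 11 clock repressors, 9 had a promoter entry, and 4 of these held an E-box (Per1, Cry1, Bhlhe41 and Gm129), 3 the variant (Cry1, Cry2 and Nr1d1), 1 the D-box (Per3) and 1 the ROR element (Nfil3). Of the 4 activators with an entry, Arntl held a ROR element. Tef held an E-box, Hlf a cAMP element and Dbp none of these letters in this window. A match describes the letters only. The sequences below belong to the activators, repressors and PAR bZIP factors of the clock whose promoter holds a motif, the 2 with the largest rise and the 2 with the largest fall among them, 5′ to 3′ on the strand of the gene with the motif in capitals. Gm129 lies at chr3:95882179-95882478 on the minus strand and holds 3 E-boxes, which begin 116, 58 and 44 bases before the start. Bhlhe41 lies at chr6:145865371-145865670 on the minus strand, with its E-box 153 bases before the start. Arntl lies at chr7:113207261-113207560 on the plus strand, and its ROR element begins at base 30 after the start. Nfil3 lies at chr13:52980990-52981289 on the minus strand, and its ROR element, read from the other strand, begins 12 bases before the start.
Gm129 (Ciart): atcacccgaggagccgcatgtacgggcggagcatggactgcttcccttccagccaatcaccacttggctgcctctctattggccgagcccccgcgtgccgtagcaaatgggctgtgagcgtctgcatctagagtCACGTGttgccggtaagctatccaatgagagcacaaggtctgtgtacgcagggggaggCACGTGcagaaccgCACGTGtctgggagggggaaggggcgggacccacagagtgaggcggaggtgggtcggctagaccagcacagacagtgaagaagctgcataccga
Bhlhe41: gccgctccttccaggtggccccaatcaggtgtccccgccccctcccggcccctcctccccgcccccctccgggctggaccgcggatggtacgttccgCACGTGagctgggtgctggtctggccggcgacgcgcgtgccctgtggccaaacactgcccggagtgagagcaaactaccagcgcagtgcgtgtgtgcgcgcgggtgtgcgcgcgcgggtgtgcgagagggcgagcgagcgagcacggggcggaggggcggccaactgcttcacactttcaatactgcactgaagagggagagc
Arntl: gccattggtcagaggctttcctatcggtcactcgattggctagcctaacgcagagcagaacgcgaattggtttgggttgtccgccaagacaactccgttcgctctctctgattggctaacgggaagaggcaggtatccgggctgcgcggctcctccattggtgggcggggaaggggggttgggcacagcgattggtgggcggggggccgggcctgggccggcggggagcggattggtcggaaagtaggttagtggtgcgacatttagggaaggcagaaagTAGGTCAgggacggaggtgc
Nfil3: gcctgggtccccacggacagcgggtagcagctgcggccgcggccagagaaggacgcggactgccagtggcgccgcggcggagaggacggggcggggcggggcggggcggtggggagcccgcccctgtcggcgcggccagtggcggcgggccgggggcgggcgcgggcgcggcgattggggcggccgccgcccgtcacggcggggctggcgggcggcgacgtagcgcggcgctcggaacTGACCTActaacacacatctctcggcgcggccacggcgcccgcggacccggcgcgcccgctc

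Of the 20 clock output genes, 10 rose and 6 fell (median log2 fold change 0.92), and 4 did not pass the test (Upp2, Tfrc, Tsc22d3 and Rgs16). Usp2, a deubiquitinase with a strong rhythm in liver, was at 2.45, 2.03 and 3.66 CPM at 10:30 against 45.7, 58.7 and 56.8 CPM at 13:30 (4.33, SE 0.32, adjusted p = 3.8e-07). Wee1, the kinase that holds back entry into mitosis, was at 1.36, 1.79 and 1.14 CPM and then at 7.68, 13.1 and 9.56 CPM (2.81, SE 0.24, adjusted p = 1.9e-06). Ccrn4l (nocturnin) was at 6.67, 4.93 and 10.4 CPM and then at 54.8, 42.3 and 46.9 CPM (2.73, SE 0.52, adjusted p = 0.0015). Each of these genes was several times higher in every liver of 13:30 than in any of 10:30. Coq10b (1.99, SE 0.29), Nampt (1.34, SE 0.17), which makes NAD from nicotinamide, Tspan4 (1.26, SE 0.20), St3gal5 (1.02, SE 0.22), Gys2 (1.00, SE 0.13), the liver glycogen synthase, and Cys1 (0.60, SE 0.20) rose as well, but the call of Cys1 was lost in 10 of the 16 alternatives, among them each fit that left out 1 WT library other than WT 13:30 replicate 1. Lpin1, which makes diacylglycerol and coactivates PPARα, was at 309, 395 and 421 CPM and then at 1084, 1031 and 831 CPM (1.38, SE 0.38, adjusted p = 0.015), a call lost without WT 10:30 replicate 1, the lowest of its group.

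Slc45a3, a sugar transporter, led the output genes that fell, from 73.8, 76.1 and 70.0 CPM to 16.0, 19.8 and 17.0 CPM (-2.06, SE 0.20, adjusted p = 5.7e-06). It was high again at 20:30, with 63.3, 69.3 and 90.9 CPM. Elovl3, which elongates very long fatty acids, was at 629.7, 559 and 488 CPM and then at 115, 162 and 131 CPM (-2.04, SE 0.30, adjusted p = 2.4e-04). Avpr1a, the hepatic vasopressin receptor, was at 54.7, 40.9 and 53.3 CPM and then at 8.70, 19.6 and 12.0 CPM (-1.88, SE 0.23, adjusted p = 5.6e-05). The groups of these 3 genes did not overlap. Lonrf3 (-1.34, SE 0.20), Pnrc1 (-0.96, SE 0.27) and Leap2 (-0.79, SE 0.23), a peptide that opposes ghrelin, also fell. The call of Pnrc1 was lost without WT 10:30 replicate 1 or 2 or WT 13:30 replicate 1 or 3, and that of Leap2 without WT 10:30 replicate 1 or WT 13:30 replicate 3. Rgs16, a regulator of G protein signalling, was at 56.7, 47.5 and 28.8 CPM at 10:30 against 44.2, 282 and 106 CPM at 13:30, too scattered to pass (1.69, SE 0.60, adjusted p = 0.057). Among clock kinases and ubiquitin ligases, Csnk1d rose by 0.29 (SE 0.09, adjusted p = 0.038) and Fbxl21 and Btrc fell by 0.95 (SE 0.22) and 0.42 (SE 0.10), and the call of Csnk1d was lost in each fit that left out 1 WT library.

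**Figure D3:**
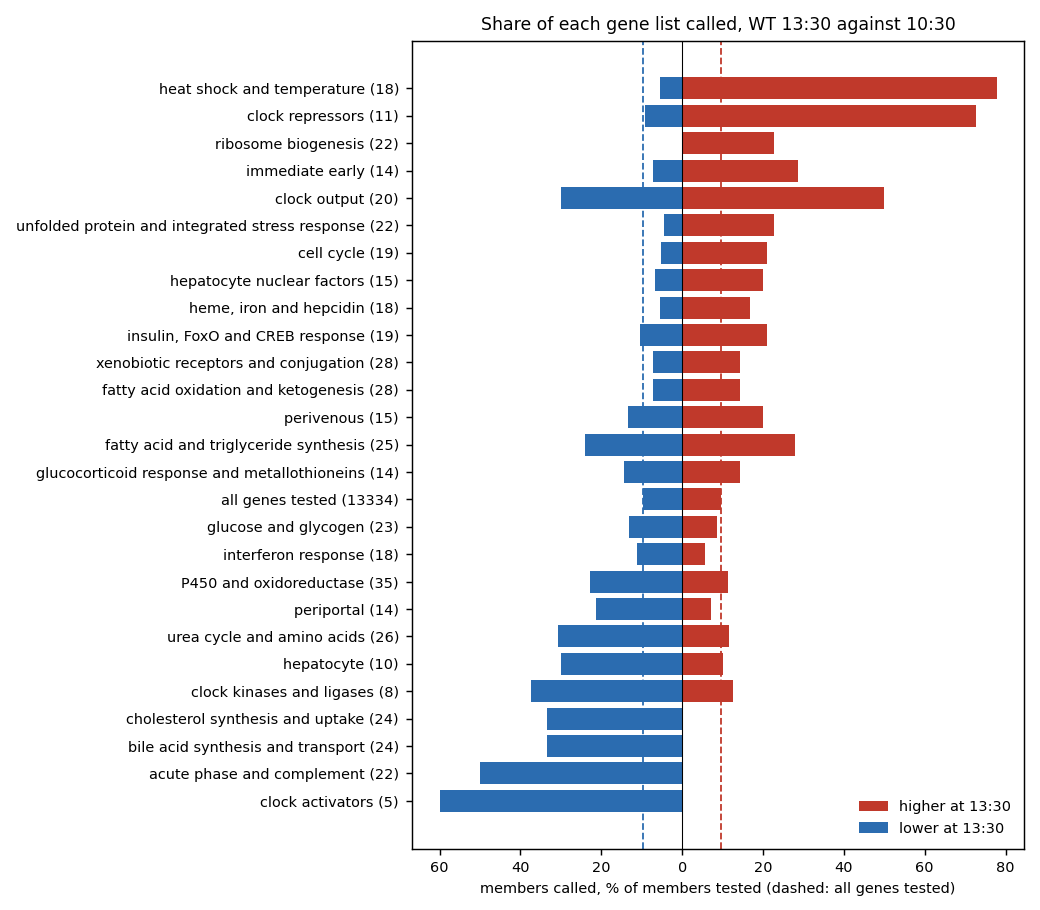
Bars give the share of tested members of each gene list that were higher (red, to the right) or lower (blue, to the left) at 13:30 in WT liver, in percent, with the number tested in brackets and dashed lines at the shares over all genes (9.52% and 9.61%). Clock repressors (8 of 11) and heat shock genes (14 of 18) reach far to the right, and clock activators (3 of 5) and acute phase genes (11 of 22) far to the left.

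Outside the clock lists, large rises were seen in genes of heme and drug metabolism. Alas1, which makes the first step of heme synthesis and limits it, was at 51.6, 105 and 318 CPM at 10:30 against 812, 652 and 859 CPM at 13:30 (2.29, SE 0.51, adjusted p = 0.0042). Its 10:30 livers differed by several fold among themselves, but all lay below those of 13:30. Por, the reductase that supplies electrons to all microsomal P450 enzymes, was at 161, 198 and 191 CPM and then at 519, 649.8 and 642 CPM (1.71, SE 0.15, adjusted p = 2.4e-06). Cyp2a5 (1.203, SE 0.26) and its near-identical paralog Cyp2a4 (1.24, SE 0.30), which can share reads with it, rose too. The P450 list of 35 genes includes Por and Alas1. Its other 8 called members were lower, by between 2.23 for Cyp2b9 and 0.43 for Cyp2j5 on the log2 scale, and the list median was -0.26. That count fell to 5 without WT 10:30 replicate 2, to 4 without WT 10:30 replicate 3 or WT 13:30 replicate 2, and to 3 without WT 13:30 replicate 3 or with offsets for GC content, and it was 16 in a fit of the compared libraries only. Cyp3a13 was among the 8, at 164, 162 and 164 CPM and then at 102, 110.5 and 115 CPM (-0.59, SE 0.12, adjusted p = 0.0021). Against 20:30, 16 of the 35 were lower at 13:30 and 1 was higher. Of 28 xenobiotic receptors and conjugating enzymes, Rxra (0.74, SE 0.14), Ppara (0.79, SE 0.19), Sult5a1 and Gstp1 rose, and Aox3 (-0.79, SE 0.14) and Gsta3 fell. Of these 4 rises, 2 were left without WT 10:30 replicate 1 or 3 or without WT 13:30 replicate 1. Over all genes, 9.52% were higher and 9.61% lower. The called shares of this list and of fatty acid oxidation, carbohydrate and interferon genes lay near these values. No list was tested against them.

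The called genes of cholesterol synthesis were all lower at 13:30. Of 24 members, 8 fell and 0 rose (median log2 fold change -0.44). Hmgcs1, which makes HMG-CoA, was at 522, 852 and 448 CPM at 10:30 against 162, 209.9 and 148 CPM at 13:30 (-1.81, SE 0.34, adjusted p = 0.0013). Sc5d, a late sterol desaturase, was at 579, 715 and 546 CPM and then at 300.4, 327 and 240.4 CPM (-1.09, SE 0.20, adjusted p = 0.0011). Both were lower in every liver of 13:30, and WT 10:30 replicate 2 was the highest liver in both. Lss (-0.79, SE 0.19), Fdft1 (-0.81, SE 0.20), Pmvk, Dhcr7, Nsdhl and the transcription factor Srebf2 also fell. Fdft1 overlaps the more abundant Ctsb on the opposite strand, which averaged 594 CPM at 10:30 and 479.6 CPM at 13:30. The count of 8 dropped to 2 without WT 10:30 replicate 2, to 4 without WT 13:30 replicate 1 and to 5 without WT 13:30 replicate 3. Against 20:30, 2 members were higher and 1 was lower at 13:30 (median 0.23), and the others were not called. Sc5d was at 129, 175 and 153 CPM at 20:30, below the livers of 13:30 (0.92, SE 0.20, adjusted p = 0.0042).

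The called bile acid genes were lower at 13:30 too. Of 24 members of synthesis and transport, 8 fell and 0 rose (median -0.37), and this count was 8 or 9 whichever WT library was left out and 14 in a fit of the compared libraries only. Hsd3b7, an early enzyme of bile acid synthesis, was at 769.6, 781 and 772 CPM at 10:30 against 376, 366 and 337 CPM at 13:30 (-1.11, SE 0.14, adjusted p = 8.1e-05). The orphan receptor Nr0b2 (SHP), which represses bile acid synthesis, was at 50.3, 47.7 and 51.9 CPM and then at 20.3, 30.1 and 19.5 CPM (-1.10, SE 0.21, adjusted p = 0.0015). These values differed little between livers of a time, and the ranges did not overlap. Slc27a5 (-0.62, SE 0.10) and Baat, which conjugate bile acids, Acox2 (-0.72, SE 0.12), Akr1d1 (-0.66, SE 0.11), Cyp27a1 and the export pump Abcb11 fell too. Cyp7a1, the rate-limiting enzyme of the pathway, was scattered, at 54.4, 181 and 168 CPM at 10:30 against 124, 128 and 250.4 CPM at 13:30 (0.31, SE 0.38, adjusted p = 0.62).

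Fatty acid and triglyceride synthesis went both ways, with 7 of 25 members higher and 6 lower (median 0.04). Thrsp (Spot14), a lipogenic cofactor, was at 110.2, 98.02 and 96.2 CPM and then at 684, 410.1 and 433 CPM (2.32, SE 0.52, adjusted p = 0.0046). Fads2 (0.84, SE 0.16), Fads1, Elovl6, Cidec, Dgat2 and Slc25a1 also rose. Those that fell included enzymes that supply acetyl-CoA. Acly was at 270.3, 325 and 254 CPM and then at 149, 162 and 149.9 CPM (-0.89, SE 0.16, adjusted p = 8.8e-04), and Acss2 at 206, 348 and 255 CPM and then at 120.3, 170.2 and 133 CPM (-0.94, SE 0.16, adjusted p = 7.0e-04). Insig2, which retains SREBP in the endoplasmic reticulum, went from 284, 239 and 217 CPM to 85.3, 113 and 83.5 CPM (-1.40, SE 0.15, adjusted p = 1.5e-05). Agpat2, Gpam and Elovl5 fell as well. In fatty acid oxidation, 4 of 28 members rose, among them Cpt1a, which admits fatty acids to mitochondria (0.64, SE 0.15, adjusted p = 0.0072), and 2 fell (Ehhadh and Hadha). The count of 4 was 2 without WT 10:30 replicate 2 or 3, and of the 2 falls 1 was left without WT 10:30 replicate 1, 2 or 3 or WT 13:30 replicate 2, and 0 without WT 13:30 replicate 3.

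Carbohydrate genes mostly did not pass, with 2 of 23 higher and 3 lower. Pfkfb3, which makes the allosteric activator of glycolysis fructose 2,6-bisphosphate, was at 15.02, 11.1 and 25.9 CPM at 10:30 against 81.5, 81.7 and 83.5 CPM at 13:30 (2.25, SE 0.30, adjusted p = 1.0e-04), and was lower again at 20:30, at 19.2, 23.7 and 24.0 CPM. Liver glycogen phosphorylase Pygl was at 561, 534 and 535 CPM and then at 353, 336 and 339.8 CPM (-0.67, SE 0.11, adjusted p = 5.7e-04). Fbp1 rose, and Gckr, the inhibitor of glucokinase, and Ppp1r3c fell. The 2 rises became 1 in every fit that left out 1 WT library other than WT 10:30 replicate 2, and the 3 falls became 1 without WT 10:30 replicate 3 or WT 13:30 replicate 1 or 3. Of 19 genes of the insulin, FoxO and CREB response, Ppargc1b (1.03, SE 0.21), Trib1 (0.85, SE 0.19), Foxo3 and Sik1 rose and Insr (-0.52, SE 0.15) and Sesn1 fell, with 2 rises left without WT 10:30 replicate 2 or WT 13:30 replicate 2 and at most 1 fall left whichever WT library was left out. Of 14 glucocorticoid and metallothionein genes, 2 rose, 2 fell and 10 were not called (median -0.065). Over all genes, 9.52% were higher and 9.61% lower. Fkbp5, the classical glucocorticoid target, was at 48.7, 70.2 and 60.9 CPM and then at 134, 203 and 213 CPM (1.61, SE 0.21, adjusted p = 8.1e-05). The other rise was Per1, which is also counted among the clock repressors. Cdkn1a (p21) went the other way, from between 10.4 and 14.4 CPM to 1.25, 2.20 and 1.37 CPM (-2.96, SE 0.31, adjusted p = 1.2e-05). The glucocorticoid receptor gene Nr3c1 fell too, and 1 of these 2 falls was left without WT 10:30 replicate 3 or WT 13:30 replicate 3.

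Of 26 urea cycle and amino acid genes tested, 3 rose and 8 fell (median -0.12). Cps1, which starts the urea cycle, was at 5906, 5879 and 5889 CPM and then at 3755, 3330.1 and 3484 CPM (-0.74, SE 0.14, adjusted p = 0.0012). Cbs, of the transsulfuration pathway, was at 634, 628 and 680.1 CPM and then at 321, 391 and 379 CPM (-0.84, SE 0.14, adjusted p = 5.4e-04). Hal (-0.85, SE 0.14), Bhmt (-1.01, SE 0.21), Cth, Asns, Kynu and Slc38a4 fell with them, while Got1, Gpt2 and Sds rose. All 3 rises were lost without WT 10:30 replicate 1 or WT 13:30 replicate 3, and 1 was left without WT 10:30 replicate 2 or WT 13:30 replicate 2. Ass1, a urea cycle enzyme, was not tested, since it held 2 to 8 counts per WT library.

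Of 22 acute phase and complement genes, 11 fell and 0 rose (median -0.43). The fibrinogen chains Fga (-0.81, SE 0.17), Fgb (-0.80, SE 0.17) and Fgg, the inter-alpha inhibitor chains Itih3 and Itih4, Cfb, C3, Apcs, Lbp, Hp and Hpx made up the 11. Itih3 was at 953, 975 and 1076 CPM and then at 559, 575 and 575 CPM (-0.82, SE 0.13, adjusted p = 4.3e-04), with the groups well apart. The serum amyloid genes did not pass. Apob, the protein of very low density lipoprotein, fell from 10866, 9610 and 9625 CPM to 5439, 5659 and 5147 CPM (-0.89, SE 0.17, adjusted p = 0.0015). The count of 11 was 6 without WT 10:30 replicate 2 or 3 or WT 13:30 replicate 1 or 3, and 7 without WT 13:30 replicate 2. Against 20:30, 14 of the 22 were lower at 13:30.

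**Figure D4:**
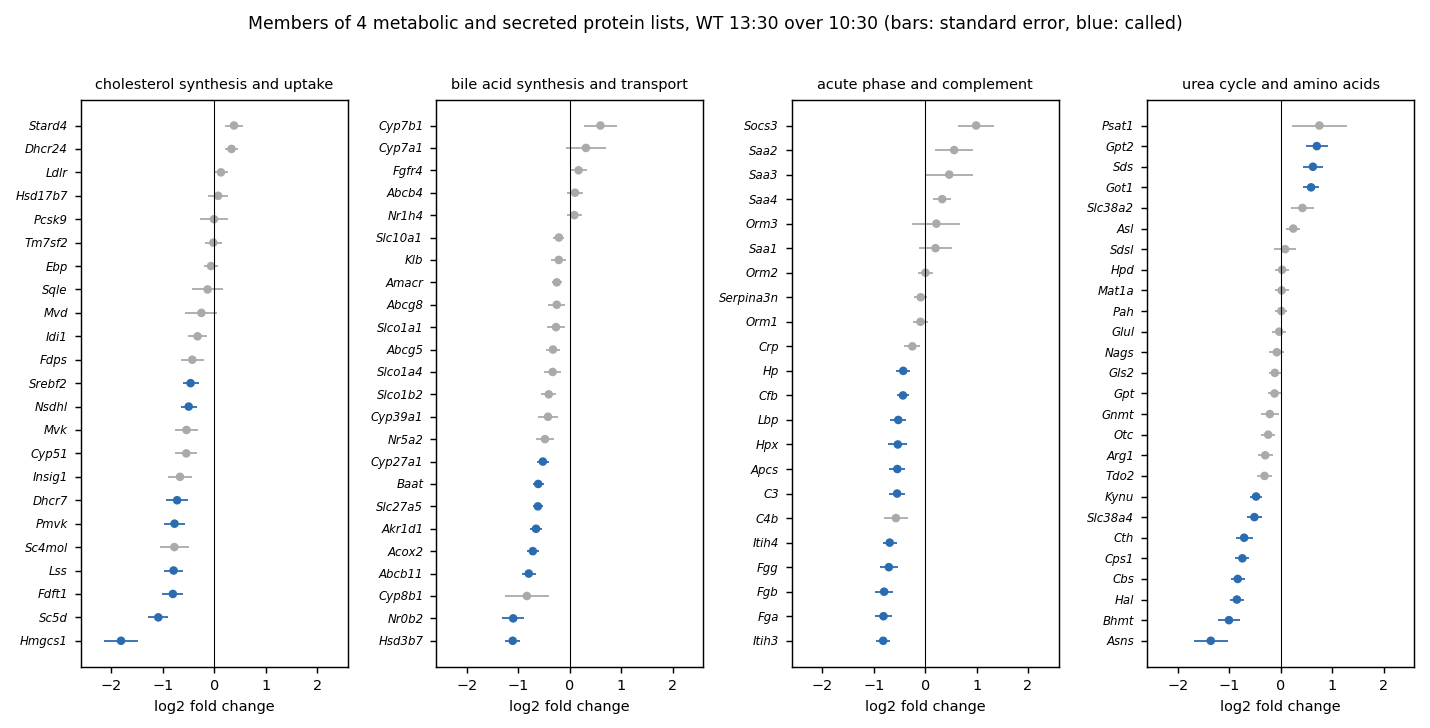
Log2 fold change of 13:30 over 10:30 in WT liver (x axis, points with bars of 1 standard error) for tested members of 4 gene lists (y axis), in blue where the adjusted p was under 0.05. The called cholesterol (8), bile acid (8) and acute phase (11) genes all lie left of 0, from Hmgcs1 at -1.81, while the urea cycle and amino acid list has 8 called genes on the left and 3 on the right.

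Heat shock genes rose in WT liver and did not rise in HMZ liver. The list holds chaperones driven by heat shock factor and the cold-induced Cirbp and Rbm3. Of 18 members, 14 rose and 1 (Cirbp) fell (median log2 fold change 0.83). The count of 14 was 10 without WT 10:30 replicate 1 or 2 and 8 without WT 13:30 replicate 1, the liver with the highest summed level of the list. That sum was 2799, 2944 and 2967 CPM at 10:30 against 5571, 3977 and 4737 CPM at 13:30. The inducible chaperone Hspa1b was at 6.44, 9.42 and 6.02 CPM at 10:30 against 39.3, 16.0 and 30.1 CPM at 13:30 (1.96, SE 0.36, adjusted p = 0.0014). Hspa1a, nearly identical to it in sequence so that the split of reads between them is uncertain, was at 3.18, 3.20 and 3.25 CPM and then at 15.3, 7.40 and 14.1 CPM (1.93, SE 0.35, adjusted p = 0.0011). In both, WT 13:30 replicate 2 was the lowest liver of its group but still above all livers of 10:30. Hsph1 (1.83, SE 0.33), Bag3, Hspb1, Dnajb1 (1.04, SE 0.17), Hsp90aa1, Hspa8, Chordc1, Dnaja1, Hspe1, Hsp90ab1, the factor Hsf1 and Ahsa1 rose as well. Cirbp was at 14.6, 15.2 and 13.7 CPM and then at 4.49, 9.42 and 4.87 CPM (-1.19, SE 0.23, adjusted p = 0.0019).

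In HMZ liver, 0 of the 18 members rose and 3 fell between the same times (median log2 fold change -0.33). Over all genes, 2.27% were higher and 2.4% lower in HMZ liver, so few rises would be called in a list of this size. Hspa1b was at 18.4, 56.6 and 36.4 CPM at 10:30 against 11.6, 13.7 and 9.37 CPM at 13:30 in HMZ livers (-1.69, SE 0.35, adjusted p = 0.0094). The change thus had opposite directions in the genotypes, and the HMZ livers of 10:30 lay above the WT livers of 10:30. The difference of the WT and the HMZ change was called in 298 of all genes (2.23%) and in 11 of the 18 members, 10 with the larger change in WT and Cirbp with the smaller. It was 3.65 log2 units for both Hspa1a (SE 0.48, adjusted p = 0.002) and Hspa1b (SE 0.51, adjusted p = 0.0028). The count of 10 was 3 without WT 10:30 replicate 2, 4 without WT 13:30 replicate 1 and 5 when WT 10:30 replicate 1 or 3, WT 13:30 replicate 3, HMZ 10:30 replicate 2 or 3 or any HMZ liver of 13:30 was left out, and it was 14 without HMZ 10:30 replicate 1, in which Rn45s took 50.8% of the counts. It was 5 with a replicate block and in the test against a 1.2-fold change as well. Within flow cell 377, 5 of the 18 were higher and 1 lower in WT liver at 13:30 than at 20:30.

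**Figure D5:**
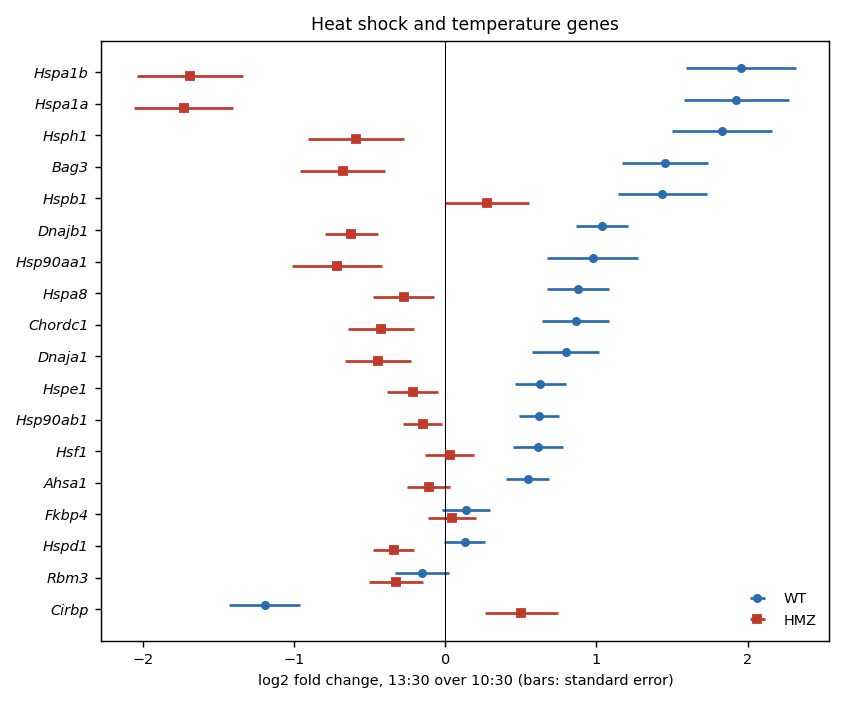
Log2 fold change of 13:30 over 10:30 (x axis, bars of 1 standard error) of the 18 heat shock and temperature genes (y axis) in WT (blue circles) and HMZ (red squares) livers. The change of Hspa1a is 1.93 in WT and -1.73 in HMZ, and Cirbp has the reverse order, -1.19 in WT and 0.50 in HMZ.

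The promoter of Hspa1b is shown because this gene had the largest fold change of the list. Of the 18 members, 13 had a promoter entry, and 10 of these held the paired heat shock element GAANNTTC, which occurred in 7.86% of all promoters. Hspa1b lies at chr17:34959189-34959488 of GRCm38.p6 on the minus strand, and its element, in capitals, begins 104 bases before the start.
Hspa1b: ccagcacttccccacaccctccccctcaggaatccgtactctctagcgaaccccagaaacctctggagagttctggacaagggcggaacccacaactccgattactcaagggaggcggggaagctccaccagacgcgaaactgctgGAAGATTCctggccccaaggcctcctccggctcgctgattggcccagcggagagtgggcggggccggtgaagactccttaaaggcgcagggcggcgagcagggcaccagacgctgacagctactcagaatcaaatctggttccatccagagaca

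Stress genes of other kinds rose in part. Of 22 genes of the unfolded protein and integrated stress response, Atf3, Creld2, Manf, Sel1l and Hyou1 rose and Asns fell (median 0.41). Creld2, a secreted chaperone of the endoplasmic reticulum, was at 28.7, 19.6 and 30.3 CPM and then at 226, 59.1 and 88.8 CPM (2.25, SE 0.43, adjusted p = 0.0015). WT 13:30 replicate 1 stood high here, and the summed level of the list was 4185, 3570 and 4208 CPM at 10:30 against 7369, 3837 and 4545 CPM at 13:30, so the groups overlapped. The count of 5 was 2 without WT 10:30 replicate 1 or 2 or WT 13:30 replicate 1, 3 without WT 10:30 replicate 3, 10 without WT 13:30 replicate 2 and 8 with offsets for GC content. Against 20:30, 11 of the 22 were higher and 0 lower. Of 22 ribosome biogenesis genes, Gnl3 (1.34, SE 0.31), Polr1b, Nop2, Rrp9 and Rrn3 rose (median 0.43), a count that was 1 without WT 10:30 replicate 1 or 2 or WT 13:30 replicate 1, 3 without WT 13:30 replicate 3, 8 without WT 13:30 replicate 2 or with DESeq2, and 11 in a fit of the compared libraries only. Of 14 immediate early genes, Atf3 (2.68, SE 0.47), Jun (1.02, SE 0.22), Jund and Ier2 rose (2 of them with the GC offsets) and Klf6 fell, the last with a call that was lost without WT 10:30 replicate 1 or 2 and without each WT liver of 13:30. Atf3 is the same gene that was counted in the stress response list above. It was low, at 0.136, 0.185 and 0.244 CPM at 10:30 against 1.06, 1.15 and 1.37 CPM at 13:30.

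Of 19 cell cycle genes tested, 4 rose and 1 fell. Ccne1 (cyclin E1) was at 0.227, 0.246 and 0.163 CPM at 10:30 against 2.41, 2.13 and 2.40 CPM at 13:30 (3.37, SE 0.36, adjusted p = 1.3e-05). Ccnd1 (0.86, SE 0.20), Ccne2 and Wee1 rose and Cdkn1a fell, and the other 14 did not pass. Ccnd1 overlaps Oraov1 on the opposite strand, which averaged 9.49 CPM at 10:30 and 17.3 CPM at 13:30. Of 18 interferon response genes, Irf7 rose and Oasl1 (-1.18, SE 0.23) and Rsad2 fell, but Irf7 lost its call without WT 10:30 replicate 1 or 3 or WT 13:30 replicate 1 or 2, and 1 fall was left without WT 10:30 replicate 2 or WT 13:30 replicate 1 or 3. In iron and heme genes, the ferritin chains Fth1 (0.63, SE 0.14) and Ftl1 (0.63, SE 0.15) and Hamp2 rose and transferrin receptor 2 (Tfr2) fell, out of 18. The call of Hamp2 was lost in 7 of the 16 alternatives, and that of Tfr2 without WT 10:30 replicate 2 or 3 or WT 13:30 replicate 1.

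The called genes of the liver zones showed no common direction. Most members, called or not, had a negative log2 fold change. It was positive in 5 of 15 perivenous genes (list median -0.07) and in 3 of 14 periportal genes (list median -0.26). Of 15 perivenous genes, the Wnt targets Axin2 (0.87, SE 0.21, adjusted p = 0.0064) and Sp5 and the glutamate transporter Slc1a2 rose, while Lgr5 (-1.20, SE 0.38, adjusted p = 0.034), which is also on the Wnt pathway, and Gulo fell. Both falls were lost when any WT library other than WT 13:30 replicate 2 was left out. Of 14 periportal genes, Sds rose and Hal, Cps1 and Pigr fell, and 5 fell without WT 13:30 replicate 2. The call of Sds was lost without WT 10:30 replicate 1 or 2 or WT 13:30 replicate 2 or 3. Of 15 hepatocyte nuclear factors, Foxa3 (1.03, SE 0.19, adjusted p = 0.0013), Cebpb (0.96, SE 0.26, adjusted p = 0.014) and Hnf4a rose and Nr0b2 fell, with 1 rise left without WT 10:30 replicate 1 or WT 13:30 replicate 2. Hnf4a, the gene altered in HMZ mice, was at 700.5, 668 and 788 CPM at 10:30 against 1105, 1054 and 978 CPM at 13:30 in WT liver. Its groups did not overlap and its log2 fold change was 0.54 (SE 0.17, adjusted p = 0.03), but the call was lost in 5 of the 6 fits that left out 1 WT library, the exception being WT 10:30 replicate 3.

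Other large changes fell outside the lists. Corin, the protease that activates natriuretic peptides, held 571, 426 and 159 counts at 10:30 and 4, 2 and 2 counts at 13:30 (-7.47, SE 1.01, adjusted p = 1.1e-04). It was at 14.7, 11.7 and 10.9 CPM in WT liver at 20:30. In HMZ livers Corin varied from mouse to mouse, at 0.175, 6.24 and 6.65 CPM at 10:30 against 5.19, 3.60 and 0.115 CPM at 13:30. Cldn1, a tight junction claudin, was at 143, 125 and 107 CPM and then at 15.6, 21.7 and 15.1 CPM (-2.84, SE 0.28, adjusted p = 5.7e-06), and Clpx, of the mitochondrial protease that controls ALAS1, was at 339.7, 284 and 304 CPM and then at 66.2, 66.1 and 67.3 CPM (-2.22, SE 0.16, adjusted p = 3.7e-07). In both genes the livers of a time were close together. Tubb2a and Tubb2b, similar tubulin genes that can share reads, fell by 2.38 (SE 0.24) and 2.50 (SE 0.27), and Lrtm1 (-2.56), Zc3h12d (-1.96), Asap2 (-1.91) and Gm11437 (-2.01) fell too. Asap2, Gm11437 and Pitx3 overlap other genes on the opposite strand. Pitx3 averaged 0.758 CPM at 13:30 beside 136 CPM for its overlapping neighbour Elovl3, so its fall of 2.89 (SE 0.48) is uncertain.

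Among the rises, Mfsd2a, a lysophospholipid transporter, was at 12.7, 12.3 and 26.5 CPM and then at 96.6, 116 and 103 CPM (2.63, SE 0.60, adjusted p = 0.005). Acot3, a peroxisomal thioesterase, rose by 3.16 (SE 0.74, adjusted p = 0.0062), but its livers of 13:30 were spread from 3.84 to 28.7 CPM. Tchh was at 25.4 CPM in WT 13:30 replicate 1 and at 2.43 and 5.55 CPM in the other livers of that time, and its call (3.32, SE 0.78, adjusted p = 0.0061) was lost without that liver. Gm16551 (2.31, SE 0.45) and the pseudogene Serpina4-ps1 (2.63, SE 0.77) rose too, the second with a call that was lost in 4 of the 6 fits that left out 1 WT library.

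The core of the clock changed in HMZ liver as well. Arntl fell by 3.58 (SE 0.35) on the log2 scale between the same times in HMZ livers, Clock by 1.01 (SE 0.12), and Npas2 by 3.89 (SE 0.58), while Per3 rose by 2.89 (SE 0.28), Dbp by 3.00 (SE 0.36) and Gm129 by 3.25 (SE 0.47). For each of these 6 genes the difference of the WT and the HMZ change did not pass the test, with a log2 difference of 2.37 (SE 0.80, adjusted p = 0.12) for Gm129 as the largest. Among clock output genes, the difference was called for Usp2, Avpr1a, St3gal5 and Lpin1. Usp2 rose by 2.15 (SE 0.28) in HMZ liver against 4.33 in WT liver (difference 2.19, SE 0.42, adjusted p = 0.016). Lpin1 had a log2 fold change of -1.10 (SE 0.38, adjusted p = 0.1) in HMZ liver (difference 2.48, SE 0.53, adjusted p = 0.027).

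The 8 genes with the smallest p for that difference were Gm826, Mbd1, Hspa1a, Fermt2, Hspa1b, Got1, Cd207 and Kalrn. Mbd1, which binds methylated DNA, was at 50.7, 53.1 and 76.3 CPM at 10:30 against 210.1, 140.2 and 109 CPM at 13:30 in WT livers, and at 84.8, 114 and 99.6 CPM and then at 41.5, 37.9 and 42.0 CPM in HMZ livers. It rose in WT liver and fell in HMZ liver, and the changes differed by 2.66 log2 units (SE 0.30, adjusted p = 4.4e-04). Got1, the cytosolic aspartate aminotransferase, moved in opposite directions too, by 0.59 (SE 0.16) in WT liver and by -0.99 (SE 0.16) in HMZ liver (difference 1.58, SE 0.23, adjusted p = 0.0035). Fermt2, a kindlin of integrin adhesions, fell from 202, 208 and 179.7 CPM to 77.1, 91.1 and 83.2 CPM in WT liver (-1.23, SE 0.10) and was at 81.3, 68.4 and 88.8 CPM and then at 67.7, 74.9 and 69.9 CPM in HMZ liver (difference -1.06, SE 0.15, adjusted p = 0.0028). Cd207 (langerin) fell by 1.52 (SE 0.25) in WT liver and did not pass in HMZ liver (0.85, SE 0.24, adjusted p = 0.053). The count of 298 genes ranged from 43 without WT 10:30 replicate 2 to 877 without HMZ 10:30 replicate 1.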

How the data were processed

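Liver poly(A) RNA of 24 mice was sequenced, and the 18 fed libraries entered the tests. The methods and the submitters' notes name alignment to mm10 with TopHat2 2.1.1, at 1 unique alignment per read, and HTSeq 0.6.1 for counting. The deposited table holds the authors' raw counts for 23411 gene symbols, without normalization. The deposited normalized tables of single libraries were not used.

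Tests were run with edgeR 4.0.16 in R 4.3.3. Low counts were removed by filterByExpr, libraries were scaled by TMM, and the quasi-likelihood fit held 6 groups, with Benjamini-Hochberg adjustment over 13334 genes at a threshold of 0.05. CPM values use library size and TMM factor. Each standard error was taken as the fold change on the log2 scale over the root of its F statistic. Whether replicate numbers mark a shared litter or day is not stated. The deviations of same-numbered livers from their group means correlated by 0.01, 0.118 and -0.029. No 2 libraries matched within sampling noise.

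The genes named are those of the clock lists, the 15 largest changes in each direction (called, mean log2 CPM of at least 1, no overlap), the 4 smallest p of every other list, the 8 smallest p of the genotype difference, and Hnf4a. Other genes are named where every called member of a list is given or, like Cyp7a1 and Alb, after their values were seen. A few genes that met the rule are not reported here and were not replaced. The comparison, the 36 gene lists and the rule were chosen with earlier results of these data known. Alternatives covered scaling, correction for GC content, DESeq2 1.42.0, filters, the set of libraries, the replicate block, a 1.2-fold threshold and each library left out. The fit was also tested on simulated counts.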

Additional observations from a re-analysis of the deposited data

Results flagged for a closer look

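The change from 10:30 to 13:30 differed between WT and HMZ livers in 32 of the 172 named genes, by the test of the difference itself (edgeR, adjusted p under 0.05). Over all 13334 genes tested, 298 (2.23%) were called. Many named genes were chosen by their WT change, and 8 by the p of this difference. The count of 32 is raised by that choice and cannot be set against the share over all genes. Each value below is the log2 change in WT liver minus the log2 change in HMZ liver.

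The WT change was the larger one in 4 named heat shock genes, with differences of 3.65 for Hspa1a, 3.65 for Hspa1b, 2.42 for Hsph1, 1.66 for Dnajb1. It was 1.45 for the immediate early gene Jun. Among clock output genes the difference was 2.19 for Usp2, 2.48 for Lpin1, 1.31 for St3gal5 and -1.29 for Avpr1a.

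In metabolism, the difference was 3.498 for Alas1, 0.92 for Por, 2.35 for Pfkfb3, 3.42 for Mfsd2a, 1.58 for Got1, 1.09 for Sds, -1.11 for Acly and -0.63 for Pygl. The HMZ livers of 10:30 were widely spread in Alas1, at 388, 1394 and 541 CPM. For genes of transcription and hormone response it was 2.66 for Mbd1, 1.28 for Foxa3 and 1.53 for Fkbp5.

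Among the other genes the differences were -6.93 for Corin, -2.37 for Cd207, -1.95 for Cldn1, -0.74 for Clec4g, -0.95 for Clpx, -1.06 for Fermt2, -1.15 for Kalrn, -1.39 for Oasl1, -2.08 for Zc3h12d, -1.31 for Tubb2a and -1.50 for Tubb2b, and 2.78 for Gm826.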

How the results depend on the processing

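Time of day and flow cell cannot be told apart in the WT comparison, and the GC content of genes differed between higher and lower calls (median 53.8% and 46.6%). With 3 mice a group, small changes near the threshold come and go with single livers, and genes under about 1 CPM rest on few counts.

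Of 172 named genes, 137 were called, and 0 changed direction. Of those called, 97 kept the call in each of the 16 alternatives that tested them. The filter of at least 50 counts in 3 libraries left some of the 137 untested, while 133 kept the call and 1 lost it. The named calls lost numbered 0 with DESeq2, relative log expression factors or only the compared libraries, 18 with GC content and full quantile offsets, 32 in the test against a 1.2-fold change, and 11 to 23 when 1 library was left out. Of 50 list counts above 0, the numbers that moved by over 1.5 times were 13 with the GC offsets, 27 in the 1.2-fold test and 14 to 18 when a library was left out. The median log2 fold change of all genes stayed between -0.06 (upper quartile factors) and 0.

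Against a 1.2-fold change, 575 genes were higher, 548 lower and 56 differed in change between genotypes, where DESeq2 gave 684. The fit with a replicate block gave 1196 higher and 1174 lower genes and 144 for the difference between genotypes. Whether the numbers pair the livers cannot be decided from 3 correlations within groups of 3 mice, of which 1 passed 0.1. The block lost 1 named call and took the count for the difference between genotypes from 298 to 144. Leaving out 1 library gave between 757 and 1107 higher genes, between 799 and 1021 lower genes and between 43 and 877 genes for the difference between genotypes. The cause was not tested.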
